A study of Mus musculus with 36 samples.

Results

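Mouse oocytes express a group of Nlrp genes besides the best studied ones, and 8 of them were followed here: Nlrp4a, Nlrp4b, Nlrp4c, Nlrp4e, Nlrp9a, Nlrp9b, Nlrp9c and Nlrp14. They were taken by name from the table of 21968 genes, and all 8 had a row in it and counts in every oocyte. The table comes from oocytes at the GV stage, whose large nucleus, the germinal vesicle, is still intact before meiosis resumes, each made into a sequencing library of its own. The Drp1_KO label covered 18 oocytes from 4 mice, lettered a to d, and the Drp1_WT label covered 18 oocytes from 5 mice, numbered 1 to 5. Each mouse gave 3 to 5 oocytes and counts as 1 replicate, with n = 4 under the Drp1_KO label and n = 5 under the Drp1_WT label. Drp1 is the product of Dnm1l, the dynamin-related GTPase that divides mitochondria, and the series title speaks of its depletion from the oocyte. The labels name no Cre line, no deleted exon, no strain and no age, and do not say whether mice of the groups were littermates.

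The libraries held 3178509 to 7406895 counts each, and several of them stood apart. Dnm1l was at 144, 204 and 274 CPM (counts per 1000000 of the library's counts; lowest, median and highest oocyte) in libraries labelled Drp1_KO. It was at 116, 134 and 156 CPM in the 5 libraries labelled Drp1_WT from tubes 11 to 15 (mice 3 and 4), and at 234, 285 and 322 CPM in the other 13 labelled Drp1_WT. Dnm1l thus ran against the label in those 5 libraries, although its reads were counted over the whole gene, and reads from outside a deleted part would still count. Tube 10 of mouse b, labelled Drp1_KO, lay below all 35 other oocytes for 58.4% of the 2074 genes of at least 100 CPM and above them for 21.5%. It held the lowest level of 7 of 8 oocyte markers, while Figla, present in the other 35 oocytes at 40.2 CPM or more, was at 0 CPM. Of 10 immune markers, 8 lay above all other oocytes in that tube, at a summed 655 CPM against at most 8.84 CPM elsewhere, and Cd14 and Cd74 were at 0 CPM. Its 12 granulosa and cumulus markers summed to 107 CPM, against 49.8 to 126 CPM over all libraries. Most of that sum was Cyp19a1, at 72.1 CPM in tube 10 and 41.2 to 86.2 CPM over all libraries. Inhba alone of the 12, at 4.50 CPM, lay above all other oocytes (at most 3.40 CPM). Mouse d and mouse 5 are the mice of tubes 27 to 30, a numbering the labels do not explain. Fits without tube 29 of mouse 5, labelled Drp1_WT, were also made.

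NLRP proteins carry a pyrin domain, a NACHT domain that binds nucleotides, and a run of leucine-rich repeats. Some of them, such as NLRP3, sense infection or damage and gather with the adaptor ASC and caspase-1 into an inflammasome. Another set is made chiefly in oocytes and early embryos and is stored for the time before the embryo's own genome is active. Its best known member is Nlrp5, also called Mater, a maternal-effect gene and part of the subcortical maternal complex beneath the egg's surface. In the mouse the Nlrp4 and Nlrp9 genes multiplied by duplication. Nlrp4e has been reported to be needed by mouse embryos before implantation, and Nlrp9b is known in the mouse gut for sensing rotavirus. Maternal Nlrp14 is needed for early development of mouse embryos.

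All 8 genes lie on chromosome 7 (GRCm38, GENCODE M21), and 3 of them are close neighbours. Nlrp9c (ENSMUSG00000040614) occupies chr7:26322473-26403700 on the minus strand. Nlrp4a (ENSMUSG00000040601) follows at chr7:26435113-26476142 on the plus strand, its start 31413 bases from that of Nlrp9c, and Nlrp9a (ENSMUSG00000054102) at chr7:26535023-26575615 on the plus strand. The other 5 are on the plus strand, each megabases from its nearest relative among the 8. They are Nlrp4c (ENSMUSG00000034690) at chr7:6045161-6105150, Nlrp4b (ENSMUSG00000034087) at chr7:10687789-10730168 and Nlrp9b (ENSMUSG00000060508) at chr7:19991465-20073306. Nlrp4e (ENSMUSG00000045693) lies at chr7:23301192-23362277 and Nlrp14 (ENSMUSG00000016626) at chr7:107166990-107198102. Over their aligned coding sequences Nlrp4c and Nlrp4e were 93.9% identical, Nlrp9a and Nlrp9c 87.4%, Nlrp4a and Nlrp4c 86.3%, Nlrp9a and Nlrp9b 83.5%, and Nlrp9b and Nlrp9c 82.3%. Nlrp4b was 77.9% to 78.9% identical to the other Nlrp4 genes, and genes of different families were 47.4% to 51.5% identical.

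The longest identical coding stretches show how alike the members are at the scale of a sequencing read, and so where reads could not be told apart. Nlrp9a and Nlrp9b share 129 coding bases without a difference, inside coding bases 577 to 729, and Nlrp4c and Nlrp4e share 120, inside coding bases 109 to 252. Each is printed with 12 flanking bases on either side from the GENCODE M21 transcripts, 5′ to 3′, and capitals mark the flanking bases that differ within the pair.
Nlrp9a: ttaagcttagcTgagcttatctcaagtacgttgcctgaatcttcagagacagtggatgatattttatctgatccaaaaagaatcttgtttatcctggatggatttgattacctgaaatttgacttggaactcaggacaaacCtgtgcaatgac
Nlrp9b: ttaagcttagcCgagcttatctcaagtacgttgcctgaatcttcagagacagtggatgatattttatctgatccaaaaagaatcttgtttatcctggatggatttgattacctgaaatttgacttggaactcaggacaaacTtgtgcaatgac
Nlrp4c: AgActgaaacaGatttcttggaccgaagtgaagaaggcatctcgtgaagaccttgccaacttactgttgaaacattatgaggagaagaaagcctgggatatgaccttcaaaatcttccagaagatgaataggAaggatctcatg
Nlrp4e: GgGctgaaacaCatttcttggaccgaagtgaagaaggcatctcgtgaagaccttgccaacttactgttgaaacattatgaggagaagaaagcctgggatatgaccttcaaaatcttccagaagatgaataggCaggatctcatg

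A single-end read of 100 bases cannot place itself where a window of that length also occurs in another annotated gene. Of all such windows in the members' transcripts, none were shared for Nlrp4a, Nlrp4b and Nlrp14 (0% each), and 0.844% for Nlrp4c, 0.820% for Nlrp9a, 2.11% for Nlrp9b and 0.229% for Nlrp9c. Nlrp4e stood out with 11.5% shared, nearly all with unprocessed pseudogenes such as Gm8486 (377 of its 379 shared windows). With windows of 50 bases the shared part was 36.7% for Nlrp4e, 10.7% for Nlrp4c, 7.79% for Nlrp9b, 6.07% for Nlrp9a, 2.63% for Nlrp4a and 2.61% for Nlrp9c, and still 0% for Nlrp4b and Nlrp14. How reads with several matches were counted is not given in the sources used here, so the level of Nlrp4e is the least certain of the 8. Other annotated genes overlap Nlrp4b (Gm45379), Nlrp4e (Krt8-ps) and Nlrp9b (Gm18877 and n-R5s152), none of them a row of the table.

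The promoter windows of the neighbours Nlrp9a and Nlrp9c are near copies, whereas the window listed for Nlrp9b is unlike both. RefSeq's promoter windows of 300 bases around the start site (GRCm38.p6) matched 7 of the 8 genes, with Nlrp14 unmatched. Over 253 aligned bases the Nlrp9a and Nlrp9c windows were 96.4% identical, with 106 bases in a row shared. Nlrp9a with Nlrp9b gave 47.8% and Nlrp9b with Nlrp9c 43.1%. The Nlrp9b window, from 20007773, lies inside the GENCODE gene, which starts at 19991465, so the sequence at that start was not compared. The window at the downstream start of Nlrp4a was 77% identical to that of Nlrp4b at its upstream start and 74.1% identical to that of Nlrp4c. The window at the upstream start of Nlrp4a, not printed here, was only 37.7% and 40.6% identical to these. That of Nlrp4b was 75% identical to that of Nlrp4c, and that of Nlrp4e at most 42.3% identical to any of the other Nlrp4 windows. The 6 windows are shown to make these resemblances visible, 5′ to 3′ on the gene's strand, with capitals for the E-box CANNTG, the homeobox core TAATTG and the TATA-like word TATAAA on either strand. They are Nlrp9a at chr7:26534773-26535072 (plus), Nlrp9c at chr7:26403651-26403950 (minus), Nlrp9b at chr7:20007773-20008072 (plus), Nlrp4a at chr7:26435364-26435663 (plus), Nlrp4b at chr7:10687543-10687842 (plus) and Nlrp4c at chr7:6044911-6045210 (plus).
Nlrp9a: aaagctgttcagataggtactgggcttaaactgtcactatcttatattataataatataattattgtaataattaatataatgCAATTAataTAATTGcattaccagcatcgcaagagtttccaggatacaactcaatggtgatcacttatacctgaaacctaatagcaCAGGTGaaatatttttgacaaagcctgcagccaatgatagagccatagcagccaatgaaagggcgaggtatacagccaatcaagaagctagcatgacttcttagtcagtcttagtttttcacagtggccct
Nlrp9c: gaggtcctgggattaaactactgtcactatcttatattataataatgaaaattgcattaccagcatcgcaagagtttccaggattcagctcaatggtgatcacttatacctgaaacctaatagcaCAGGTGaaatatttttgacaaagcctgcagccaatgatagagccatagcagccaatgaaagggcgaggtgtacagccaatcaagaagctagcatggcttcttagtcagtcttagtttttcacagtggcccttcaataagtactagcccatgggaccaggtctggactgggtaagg
Nlrp9b: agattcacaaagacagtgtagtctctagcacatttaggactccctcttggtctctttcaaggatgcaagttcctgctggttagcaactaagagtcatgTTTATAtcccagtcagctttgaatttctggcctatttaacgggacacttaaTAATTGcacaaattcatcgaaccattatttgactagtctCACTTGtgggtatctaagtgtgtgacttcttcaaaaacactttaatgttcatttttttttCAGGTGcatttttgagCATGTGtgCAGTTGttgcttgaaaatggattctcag
Nlrp4a: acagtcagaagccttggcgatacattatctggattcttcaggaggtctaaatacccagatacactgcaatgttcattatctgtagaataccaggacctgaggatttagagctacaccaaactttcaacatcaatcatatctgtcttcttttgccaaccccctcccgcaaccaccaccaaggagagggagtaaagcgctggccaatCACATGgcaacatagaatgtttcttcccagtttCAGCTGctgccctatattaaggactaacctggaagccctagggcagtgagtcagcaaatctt
Nlrp4b: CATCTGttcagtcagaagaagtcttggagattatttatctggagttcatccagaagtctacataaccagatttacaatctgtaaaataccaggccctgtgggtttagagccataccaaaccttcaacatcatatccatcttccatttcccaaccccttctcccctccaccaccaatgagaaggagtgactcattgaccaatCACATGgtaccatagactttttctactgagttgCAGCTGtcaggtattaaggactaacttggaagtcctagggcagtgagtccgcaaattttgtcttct
Nlrp4c: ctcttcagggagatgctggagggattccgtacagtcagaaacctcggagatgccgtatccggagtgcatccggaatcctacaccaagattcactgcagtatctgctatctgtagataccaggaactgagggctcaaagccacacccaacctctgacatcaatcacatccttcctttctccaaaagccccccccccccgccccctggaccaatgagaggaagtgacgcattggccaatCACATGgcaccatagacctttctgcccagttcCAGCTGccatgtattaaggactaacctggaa

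CANNTG is the E-box, the class of site bound by basic helix-loop-helix factors such as FIGLA of the oocyte, and TAATTG is a core that homeobox factors such as NOBOX can bind. Every member window held CANNTG on either strand, as did 72.3% of all 32851 promoter windows in the RefSeq table. TAATTG was found in Nlrp9a (2 matches, on opposite strands) and Nlrp9b (1 match), and in 8.0% of all windows. The TAATTG matches of Nlrp9a lie in an AT-rich stretch that the Nlrp9c window lacks. Nlrp9a, Nlrp9b and Nlrp9c each held 1 CACCTG, a form of CANNTG present on either strand in 20.2% of windows, and the Nlrp4 windows held 0. CCAAT on either strand occurred 3 times each in Nlrp9a, Nlrp9c and Nlrp4c and 0 times in Nlrp9b (37.4% of all windows), and TATAAA in Nlrp9b alone (13.6% of all windows). These matches describe letters in the windows and say nothing of binding, and the Nlrp9b window lies away from the GENCODE start of its gene.

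Nlrp14 was by far the most abundant of the 8 genes, and Nlrp4c the least. To compare genes, CPM was divided by the length of a gene's merged exons in kilobases, and mouse means were averaged. Nlrp14 stood at 2622 ± 336 CPM per kilobase (SD, n = 9 mice), rank 12 of 21876 named genes, with 2495 in mice labelled Drp1_KO and 2724 in mice labelled Drp1_WT. Nlrp9a followed at 348 ± 30.05, Nlrp9b at 321 ± 29.6, Nlrp4a at 261 ± 14.6, Nlrp9c at 250.4 ± 44.2 and Nlrp4b at 206 ± 14.7 CPM per kilobase, ranks 146 to 284. Nlrp4e (41.4 ± 7.87, rank 1422) and Nlrp4c (7.59 ± 1.37, rank 4470) lay well below them. As a share of all counts, the 8 genes together took 0.683%, 1.54% and 1.96% (lowest, median and highest oocyte) under the Drp1_KO label and 0.835%, 1.66% and 1.95% under the Drp1_WT label. Nlrp14 alone accounted for a median of 0.936% and 1.00% under these labels.

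The order was firm at its ends and loose in the middle. Nlrp14 exceeded Nlrp9a per kilobase in 35 of 36 oocytes and in 9 of 9 mice, and the exception was tube 10 of mouse b. Nlrp4b exceeded Nlrp4e, and Nlrp4e exceeded Nlrp4c, in 36 of 36 oocytes. Between these, the ranges over mice overlapped for every neighbouring pair. Nlrp9a lay above Nlrp9b in 29 of 36 oocytes, Nlrp9b above Nlrp4a in 33, Nlrp4a above Nlrp9c in 23 and Nlrp9c above Nlrp4b in 28. The place of Nlrp9c depends on the length used, since its merged exons span 5935 bases and its longest transcript 3216. With longest transcripts it moved to 462 CPM per kilobase, above Nlrp9a at 363, Nlrp9b at 357, Nlrp4a at 297 and Nlrp4b at 279.

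**Figure D1:**
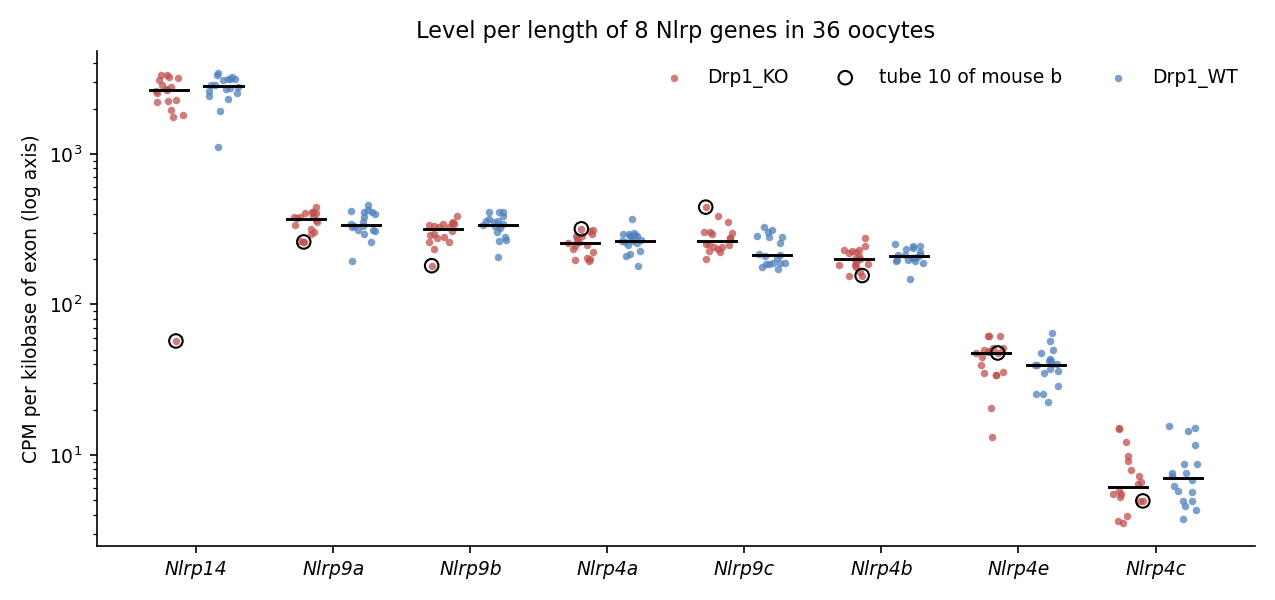
CPM per kilobase of merged exon (log axis) in each of the 36 oocytes for the 8 genes, Drp1_KO to the left of Drp1_WT within each gene, with bars at the group medians and rings around tube 10 of mouse b. Nlrp14 lies above all others except in the ringed oocyte, 5 genes share a band in the middle, and Nlrp4e and Nlrp4c lie below it.

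Single oocytes varied least for Nlrp4b and most for Nlrp4c. The coefficient of variation over the 36 oocytes was 14% for Nlrp4b, 15.8% for Nlrp4a, 17.1% for Nlrp9b, 17.3% for Nlrp9a, 24.1% for Nlrp9c, 29.1% for Nlrp4e and 47.4% for Nlrp4c. For Nlrp14 it was 26.4%, and 20.1% without tube 10 of mouse b. The 2074 genes of at least 100 CPM had a median of 21.8%, and 17.3% without tube 10. Counting error alone would give 8.14% for Nlrp4c at its median of 151 counts and 3.48% for Nlrp4e at 827 counts, and 1.32% or less at the medians of the other 6 genes. Spread above these values also holds the noise of cDNA amplification, since the libraries carry no molecular identifiers.

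Nlrp4c reached its highest levels in a few oocytes of several mice. In CPM of each oocyte's own total it ran at 14.1, 24.4 and 60.4 (lowest, median and highest of 18) under the Drp1_KO label and at 15.1, 28 and 62.3 under the Drp1_WT label. A cut was placed at the widest gap among the higher of these values, and any set of values has such a gap. It set off 5 oocytes of 4 mice at 57.9 to 62.3 CPM, 2 labelled Drp1_KO and 3 labelled Drp1_WT. The other 31 lay at 14.1 to 49.2 CPM. The 3 labelled Drp1_WT came from tubes 11 to 15, where Nlrp4c was at 23.0, 57.9 and 62.3 CPM (lowest, median and highest of 5), against 15.1, 25 and 46.8 CPM in the other 13 labelled Drp1_WT. Nlrp4e was likewise at 119, 168 and 221 CPM in those tubes and at 76, 135 and 162 CPM in the other 13. These tubes are the ones low in Dnm1l, and the part of that in the Nlrp4c and Nlrp4e values was not tested.

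The comparison of the labels asks whether transcripts stored in the oocyte differ when Drp1 is depleted. None of the 8 genes passed the test. Summed per mouse, 0 of 8 members had an adjusted p under 0.05 by edgeR's quasi-likelihood test, against 0.0156% of the 12812 genes tested, and 0 of 8 by DESeq2 (0.256% of its genes) or by limma-voom on oocytes (0.0844%). At an unadjusted p under 0.05, 1 member (Nlrp9c) was higher and 0 were lower, against 9.69% of all genes in either direction. The ranges of the mice overlapped between labels for all 8 members, and did not overlap for 2.56% of all genes (1.27% with Drp1_KO above, 1.29% with Drp1_KO below). The members' median log2 fold change was 0.02, with 6 of 8 positive. Over all genes the median was -0.00, with 6332 of 12812 positive. With scaling by library totals alone, Nlrp4a, Nlrp4b and Nlrp4c turned negative, and the median shift of the log2 value over all genes was -0.086. Mouse levels below are CPM with TMM factors, which adjust for composition. The edgeR p-values set the difference between labels against the spread between mice, which edgeR estimates with the help of all genes.

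**Figure D2:**
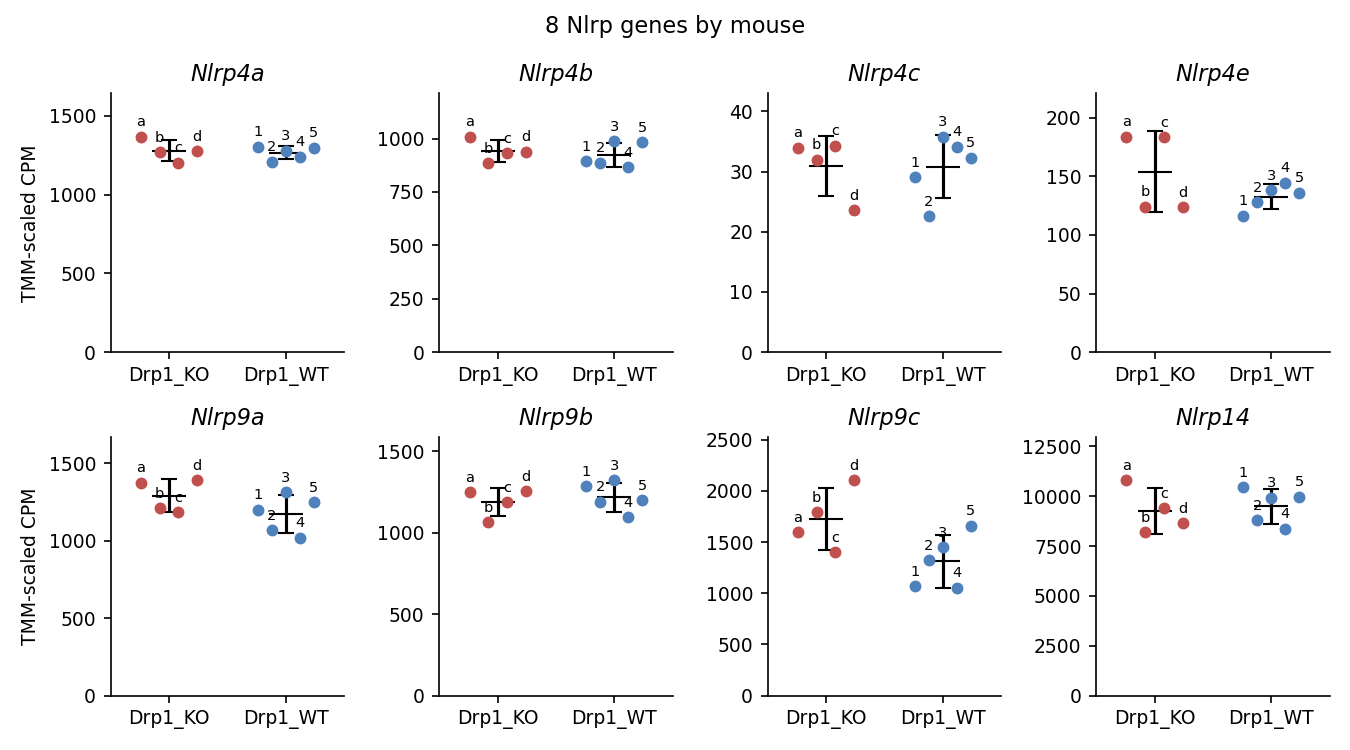
TMM-scaled CPM of the 8 genes in each mouse, Drp1_KO mice a to d to the left of Drp1_WT mice 1 to 5, with the mean and SD of each group. The groups overlap for every gene, and the group means of Nlrp9c are 1723 and 1311 CPM.

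Nlrp4a and Nlrp4b were the steadiest of the Nlrp4 genes across mice. Nlrp4a was at 1368, 1267, 1203 and 1276 CPM in mice a to d labelled Drp1_KO and at 1304, 1209, 1279, 1239 and 1297 CPM in mice 1 to 5 labelled Drp1_WT. Every mouse labelled Drp1_KO other than a and c lay inside the span of the mice labelled Drp1_WT. The means were 1279 ± 67.9 and 1266 ± 40.6 CPM (SD, n = 4 and 5), a log2 fold change of 0.01 (95% interval -0.18 to 0.21, edgeR adjusted p = 0.962). Nlrp4b averaged 941 ± 51.5 CPM in mice labelled Drp1_KO and 923 ± 57 CPM in mice labelled Drp1_WT (log2 0.03, interval -0.18 to 0.23, edgeR adjusted p = 0.930). With scaling by library totals alone the log2 values became -0.07 and -0.06, while the median shift over all genes was -0.086. Both genes thus changed sign along with a shift that the median gene made too. The intervals reach from 0.880-fold to 1.16-fold for Nlrp4a and from 0.882-fold to 1.18-fold for Nlrp4b.

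Nlrp4e and Nlrp4c, the close pair of the printed 120-base stretch, were spread more widely. Nlrp4e was at 184, 124, 183 and 123 CPM in mice a to d labelled Drp1_KO and at 116, 128, 138, 145 and 136 CPM in mice 1 to 5 labelled Drp1_WT. Mice a and c lay above every mouse labelled Drp1_WT, while b and d lay among them. The log2 fold change was 0.21 (interval -0.09 to 0.52, edgeR adjusted p = 0.602), and 0.32 without tubes 27 to 30, that is without mouse d and mouse 5. In those tubes Nlrp4e fell as low as 44.7 CPM of the oocyte's own total, in tube 30 of mouse d. Nlrp4c averaged 31.0 ± 5.01 CPM in mice labelled Drp1_KO and 30.8 ± 5.24 CPM in mice labelled Drp1_WT (log2 0.01, interval -0.33 to 0.35, edgeR adjusted p = 0.989, and -0.07 with scaling by library totals). Without the 5 libraries of tubes 11 to 15 labelled Drp1_WT, where Nlrp4c was high, its log2 value was 0.24 (edgeR adjusted p = 0.891), and 0.27 without tube 10 of mouse b and tube 29 of mouse 5 as well (edgeR adjusted p = 0.913). Mouse d was lowest among the Drp1_KO label at 23.6 CPM and mouse 2 among the Drp1_WT label at 22.5 CPM.

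Of the Nlrp9 genes, Nlrp9a and Nlrp9b did not separate the labels. Nlrp9a was at 1375, 1211, 1184 and 1391 CPM in mice a to d labelled Drp1_KO and at 1201, 1069, 1312, 1020.5 and 1249.6 CPM in mice 1 to 5 labelled Drp1_WT. Mice a and d lay above all mice labelled Drp1_WT. The means were 1290.2 ± 108 and 1171 ± 122 CPM (SD, n = 4 and 5; log2 0.14, interval -0.10 to 0.38, edgeR adjusted p = 0.648). Nlrp9b had a log2 value of the opposite sign. It was at 1249, 1062, 1187 and 1252 CPM in mice labelled Drp1_KO and at 1283, 1190.1, 1322, 1094 and 1198 CPM in mice labelled Drp1_WT (log2 -0.04, interval -0.26 to 0.18, edgeR adjusted p = 0.910). Without the 5 libraries of tubes 11 to 15 labelled Drp1_WT the log2 value was 0.010 for Nlrp9a and -0.14 for Nlrp9b (edgeR adjusted p = 0.996 and 0.909). Whether the differences of Nlrp9a and Nlrp9b differ from each other was not tested.

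With all libraries kept, Nlrp9c had the largest difference of the 8 in size, and it did not pass over all genes. It was at 1597, 1790.4, 1400.5 and 2106 CPM in mice a to d labelled Drp1_KO and at 1071, 1323, 1448, 1053 and 1659 CPM in mice 1 to 5 labelled Drp1_WT. Mice b and d lay above all mice labelled Drp1_WT, a and c inside their span. The means were 1723 ± 300.4 and 1311 ± 257 CPM (SD, n = 4 and 5), a 1.31-fold difference (log2 0.39, SE 0.16, interval 0.06 to 0.73). The unadjusted p was 0.0258 and the adjusted p 0.499 by edgeR, and over the alternatives run the adjusted p ranged from 0.243 to 0.949.

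The size of the Nlrp9c difference moved with the libraries that stand apart. In CPM of the oocyte's own total it was at 1181, 1561 and 2629 (lowest, median and highest of 18) under the Drp1_KO label and at 1015, 1259 and 1934 under the Drp1_WT label, and the highest value was that of tube 10 of mouse b. Without that tube the log2 fold change was 0.33 (edgeR adjusted p = 0.585). The 5 libraries of tubes 11 to 15 labelled Drp1_WT lay at 1015, 1098 and 1249.7 CPM, against 1056, 1519 and 1934 CPM in the other 13 with that label. The oocytes of mouse 1, outside these tubes, lay in the same low range, at 1056, 1121 and 1117 CPM. Without mouse 1 the log2 fold change was 0.33 (edgeR adjusted p = 0.769). Without the 5 libraries of tubes 11 to 15 it was 0.22 (edgeR adjusted p = 0.899). Without those 5, tube 10 and tube 29 of mouse 5 together it was 0.18 (edgeR adjusted p = 0.949). In both fits without tubes 11 to 15, Nlrp4e (0.31 and 0.23) and Nlrp4c (0.24 and 0.27) exceeded Nlrp9c. Nlrp4e also did so without mouse d (0.30 against 0.28), so the place of Nlrp9c as the largest rests on those libraries. The tube numbering moved with the level too, with a median of 1789 CPM over the 8 oocytes of tubes 27 to 30 and 1429.6 CPM over the 28 of tubes 1 to 15. Within tubes 1 to 15 the log2 fold change was 0.39 (SE 0.14, edgeR adjusted p = 0.442, 3 against 4 mice), and tubes 27 to 30 hold mouse d at 2106 CPM and mouse 5 at 1659 CPM.

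Nlrp14 did not differ between the labels beyond the spread of mice. It was at 10813, 8196, 9392 and 8658 CPM in mice a to d labelled Drp1_KO and at 10454, 8801, 9938, 8374 and 9971 CPM in mice 1 to 5 labelled Drp1_WT. Mouse a, labelled Drp1_KO, was highest. Mouse b was lowest with tube 10 in its sum, and mouse 4, labelled Drp1_WT, was the next lowest. The means were 9265 ± 1144 and 9508 ± 878 CPM (SD, n = 4 and 5; log2 -0.04, interval -0.29 to 0.22, edgeR adjusted p = 0.921). The interval reaches from 0.816-fold to 1.16-fold. By oocyte, the lowest, median and highest were 202, 9365 and 11879 CPM under the Drp1_KO label and 3941, 9998 and 12153 CPM under the Drp1_WT label. Without tube 10 of mouse b the log2 fold change was -0.0010 (edgeR adjusted p = 0.999), and without the 5 libraries of tubes 11 to 15 labelled Drp1_WT it was -0.13 (edgeR adjusted p = 0.919).

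In tube 10 of mouse b the 8 genes parted ways. Nlrp14 was at 202 CPM there (989 counts; 95% exact binomial interval 190 to 215 CPM, for counting error only), against 3941 CPM in the lowest of the other 35 oocytes. That is 19.5-fold below the lowest and 48-fold below the median of the others, and 253 of the 2074 genes of at least 100 CPM were at least 10-fold below the lowest of the others in this tube. Nlrp9b, at 673 CPM, lay just under the others (772 to 1536 CPM). Nlrp9c, at 2629 CPM, lay above them (1015 to 2295 CPM). The other 5 members were inside the range of the other oocytes. Nlrp4a was at 1539 CPM there against 868 to 1798 elsewhere, Nlrp4b at 698 against 663 to 1231, and Nlrp9a at 906 against 680.3 to 1593. Nlrp4e was at 162 CPM against 44.7 to 221, and Nlrp4c at 19.8 against 14.1 to 62.3. The maternal-effect relatives were divided likewise, with Nlrp5 at 140 CPM against at least 954 elsewhere, Nlrp2 at 32.5 against at least 281, and Nlrp4f at 2934 inside 1673 to 3926. All these genes share the library in which immune markers were high and most oocyte markers low, and the part of either in these values was not tested.

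**Figure D3:**
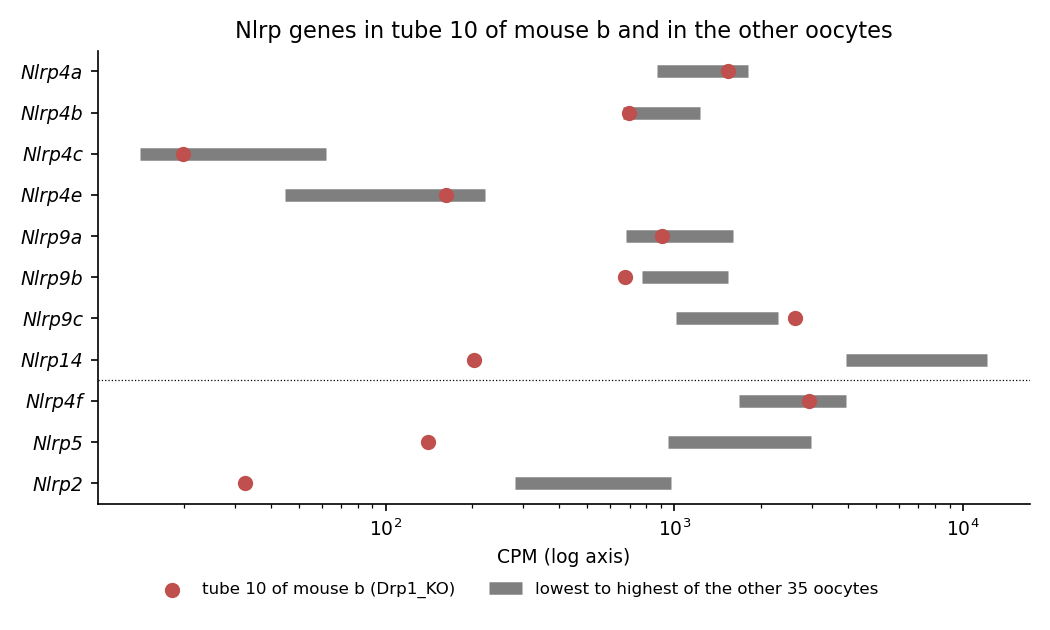
CPM (log axis) of the 8 genes, and below the dotted line of 3 relatives, in tube 10 of mouse b (points) and over the other 35 oocytes (bars from lowest to highest). Nlrp14, Nlrp5 and Nlrp2 lie far to the left of their bars, while the 4 Nlrp4 members, Nlrp9a and Nlrp4f lie within theirs.

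Among the other 35 oocytes, Nlrp9a, Nlrp9b, Nlrp4b and Nlrp14 went up and down together. Spearman's rho over these oocytes was 0.85 for Nlrp9b with Nlrp14, 0.81 for Nlrp9a with Nlrp9b, 0.78 for Nlrp4b with Nlrp14, 0.77 for Nlrp4a with Nlrp4b, 0.75 for Nlrp4b with Nlrp9a and 0.71 for Nlrp9a with Nlrp14. After subtracting each mouse's mean, rho was 0.92 for Nlrp9a with Nlrp9b and 0.82 for Nlrp9b with Nlrp14. The partners in this group are scattered along the chromosome, Nlrp9a and Nlrp9b starting 6543558 bases apart. The promoter windows printed above for Nlrp9a and Nlrp9b are unlike, but that of Nlrp9b lies away from the GENCODE start of its gene. Nlrp9a and Nlrp9c, with near-copy promoters, had a rho of 0.61 (0.70 within mice), and Nlrp9b with Nlrp9c had 0.24 (0.57 within mice). Nlrp4a and Nlrp9c, whose starts are nearest to each other, had a rho of -0.06. Tube 6 of mouse 2, labelled Drp1_WT, was the lowest of the 35 for Nlrp9a, Nlrp9b, Nlrp4b, Nlrp14 and Nlrp4a. No rho was computed without that tube. The points share library depth and amplification, and CPM values of a library share its total, so these values describe the oocytes and carry no test.

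**Figure D4:**
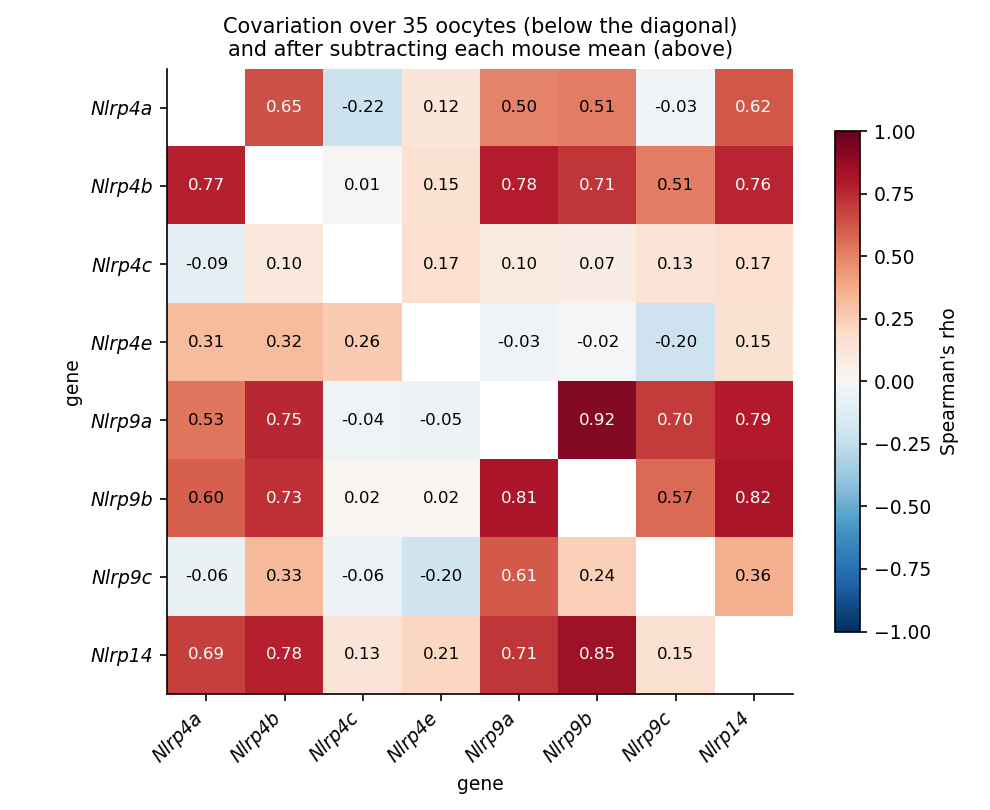
Spearman's rho between members over 35 oocytes without tube 10 of mouse b (below the diagonal) and after subtracting each mouse's mean (above it). Nlrp4b, Nlrp9a, Nlrp9b and Nlrp14 form a block of high values, with Nlrp4a beside it, while Nlrp4c stays between -0.09 and 0.26 and Nlrp4e between -0.20 and 0.32 below the diagonal.

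Nlrp4c and Nlrp4e stayed outside that group. Their rho with each other was 0.26, although their coding sequences are the most alike of all pairs, and 0.17 within mice. With the other 6 members Nlrp4c had a rho between -0.09 and 0.13 and Nlrp4e between -0.20 and 0.32. In the plot of the Nlrp9 genes, Nlrp9a and Nlrp9b rise together in oocytes of both labels, and the points against Nlrp9c are more scattered. The 5 oocytes of tubes 11 to 15 labelled Drp1_WT lie at the low end of Nlrp9c there, at 1015 to 1249.7 CPM. Those of mouse 1, at 1056 to 1121 CPM, lie there too.

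**Figure D5:**
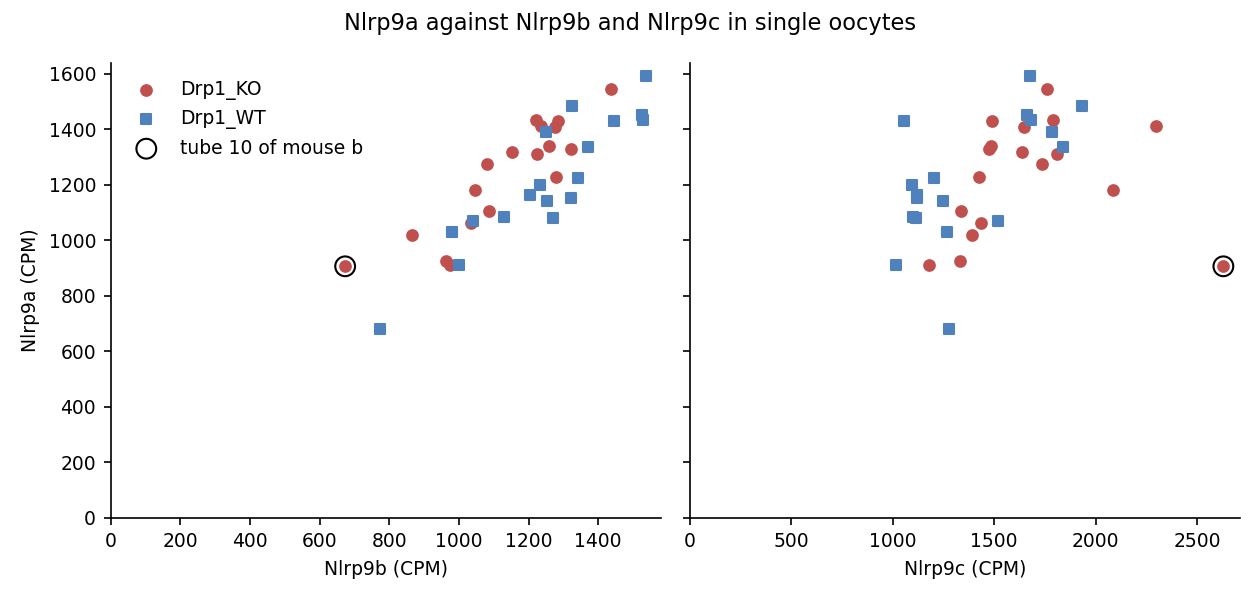
Nlrp9a (CPM, vertical axis) against Nlrp9b (left) and Nlrp9c (right) in each oocyte, circles for Drp1_KO and squares for Drp1_WT, with a ring around tube 10 of mouse b. The left panel is a band with rho 0.83 over all 36 oocytes, and the right panel is wider (0.49), with the ringed oocyte at 2629 CPM of Nlrp9c.

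Other genes that followed each member most closely were sought among the 7317 genes outside the 8 averaging at least 10 CPM, by Spearman's rho over the 36 oocytes. Nlrp14 was followed most closely by its relative Nlrp2 (rho 0.83, 0.82 without tube 10), then by Polr2b, a subunit of RNA polymerase II (0.78), and Nlrp5 (0.78). Nlrp4a was followed by its relative Nlrp4f (0.83), by Copb1 of the COPI vesicle coat (0.82, and 0.90 without tube 10) and by Kbtbd8 (0.81). Without tube 10, Copb1 moved ahead of Nlrp4f for Nlrp4a, and Rictor (0.82) ahead of Nlrp2 for Nlrp14. With the members themselves in the search, the top match was an oocyte Nlrp gene for 5 of the 8 (4 without tube 10), namely Nlrp4f for Nlrp4a, Nlrp14 for Nlrp4b (0.80) and for Nlrp9b (0.86), and Nlrp9b for Nlrp9a (0.83) and for Nlrp14 (0.86). The genes outside the 8 that came nearest to these had lower values. Nlrp4b went with Ercc6l, a DNA translocase of mitosis (0.71), Rad54b of homologous recombination (0.71) and Cip2a, an inhibitor of protein phosphatase 2A (0.70). Nlrp9b went with the phosphatase gene Ppef1 (0.76), the condensin subunit Ncapg (0.72) and again Ercc6l (0.71). Nlrp9a went with Dnttip2 (0.73), Dld, a dehydrogenase subunit of mitochondria (0.72), and Zfp182 (0.71), each below its rho with Nlrp9b.

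The remaining members had partners of their own. Nlrp9c went with Nae1 of the NEDD8-activating enzyme (0.85), the translation factor gene Eif2s1 (0.83) and Zfp534 (0.83), each above the rho of any member with Nlrp9c, at most 0.49 over the same oocytes. Without tube 10 of mouse b, where Nlrp9c was highest, these 3 held places 7, 13 and 15, and Fbxw19 came first (0.92). Nlrp4c went with the channel kinase gene Trpm7 (0.80), Zp2 of the zona pellucida (0.80) and Serpini1 (0.78). Nlrp4e had the weakest best match, Pgm5 at 0.63, followed by Cip2a (0.60) and Clasp1, a microtubule-binding protein (0.56). The median rho over all 7317 genes ran from -0.23 for Nlrp9c to 0.11 for Nlrp4c. The best of 7317 values is high by selection, and the order among near-equal values changes with the oocytes used.

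Relatives of the members split into abundant maternal genes and a nearly silent rest. Of the subcortical maternal complex, 8 of 8 genes averaged at least 10 CPM over the 9 mice, led by Padi6 at 4972, Ooep at 4557 and Zbed3 at 4484 CPM. Nlrp4f followed at 2789, Nlrp5 at 2080, Tle6 at 1939, Nlrp2 at 640 and Khdc3 at 171 CPM. By edgeR, by DESeq2 and by limma-voom alike, 0 of these 8 passed over all genes, with a median log2 fold change of -0.10. At an unadjusted p under 0.05, 0 were higher and 1 lower, against 9.69% of all genes in either direction. The 1 lower was Tle6, a component of the complex, at 1606 ± 415 CPM in mice labelled Drp1_KO and 2238 ± 547 CPM in mice labelled Drp1_WT (SD, n = 4 and 5; edgeR adjusted p = 0.504). Nlrp5 had a log2 fold change of -0.10, Nlrp2 of -0.11 and Nlrp4f of -0.06, all with edgeR adjusted p of at least 0.777.

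Most sensors and partners of the inflammasome were at or near 0 in these oocytes. Of 17 other NLR genes in the table, 13 averaged below 1 CPM, and 2 reached 10 CPM. These 2 were Naip1, a sensor of bacterial proteins, at 71.2 CPM and Nlrc4, the NLR that NAIP proteins activate, at 51.9 CPM, followed by Nod2, a sensor of bacterial cell wall, at 2.79 CPM. Nlrp3, named after its values were seen, was counted in 7 of 36 oocytes. Nlrc4 was at 66.3 ± 9.16 CPM in mice labelled Drp1_KO and 41.8 ± 10.9 CPM in mice labelled Drp1_WT (SD, n = 4 and 5; log2 0.66, SE 0.18, edgeR adjusted p = 0.471). Its groups did not overlap, which held with Drp1_KO above for 1.27% of all genes. For Nlrc4, limma-voom on oocytes gave a call (log2 0.66, adjusted p = 0.0254) while DESeq2 did not (adjusted p = 0.0966). Naip1 was at 86.7 ± 23.1 and 60.6 ± 13.8 CPM under these labels (edgeR adjusted p = 0.499). Of the 5 genes of this list that were tested, 2 were higher and 0 lower at an unadjusted p under 0.05. Over all genes 9.69% had such a p in either direction. By edgeR or by DESeq2, 0 of the 5 passed over all genes.

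Of 13 inflammasome partners, 8 averaged below 1 CPM, and Il1b, named after its values were seen, had 0 counts in every oocyte. The 3 above 10 CPM have other roles as well: Txnip, which binds thioredoxin (789 CPM), Ripk2, the kinase downstream of NOD proteins (51.7 CPM), and the mitotic kinase gene Nek7 (26.9 CPM). Of 5 tested, 2 were higher and 0 lower at an unadjusted p under 0.05, against 9.69% of all genes in either direction. By edgeR or by DESeq2, 0 passed the threshold over all genes, as did 0 of the 3 that limma-voom tested (Nek7, Ripk2 and Txnip). The 2 higher were Ripk2, at 56.6 ± 1.93 CPM in mice labelled Drp1_KO and 47.8 ± 6.04 CPM in mice labelled Drp1_WT, and Casp1, named after its values were seen, at 1.74 ± 0.935 and 0.891 ± 0.307 CPM. Casp1 was at 12.1 CPM in tube 10 of mouse b, the library of high immune markers, and at most at 3.99 CPM in any other.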

How the data were processed

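Per the labels' protocols, single oocytes were lysed whole, amplified with the SMARTer Ultra Low Input kit, made into Nextera XT libraries and sequenced as single-end reads of 100 bases. Tools listed in the submitters' processing notes are Picard, STAR, Subread 1.5.2 and featureCounts, with GRCm38 as the build and no roles stated. How multi-mapping reads and strand were handled, and with which annotation, is not given in the sources used here. What the authors deposited is 1 table of raw counts, 21968 genes by 36 oocytes, with 0 columns that belong to no sample and 0 rows that name no gene. The kits keep no strand and no molecular identifiers are named, so antisense reads and PCR copies may be counted.

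IDs were matched to symbols for 21876 genes. All 36 oocytes passed 100000 counts and 5000 genes, and each of 306 same-label pairs of libraries differed beyond sampling noise (lowest chi-square over its degrees of freedom 5.47). Each oocyte was its own library, so no cell barcodes are shared. Counts were summed per mouse and tested with edgeR 4.0.16 (R 4.3.3; TMM factors from 0.893 to 1.06, its filter on low counts, robust quasi-likelihood fit, 12812 genes, Benjamini-Hochberg adjusted p of 0.05). All 8 members passed the filter. The SE is the fold change divided by the root of F, and intervals use the t quantile on the fit's degrees of freedom. Levels per kilobase, oocyte values and correlations use CPM of each oocyte's own total. Coding sequences and promoters were aligned with mafft 7.526.

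Alternatives were DESeq2 1.42.0, limma 3.58.1 (voom on oocytes with the mouse as a random effect, and limma-trend on mouse means), other scaling and filters, thinning, the tube set as a term or left out, libraries left out and each mouse left out. On simulated data for 4 against 5 mice (12860 genes run), the recovered share was 23.9% for a 1.5-fold change (67 genes), 94% for a 2-fold change (67 genes) and 100% for a 4-fold change (66 genes), and 6 of 151 edgeR calls were false. Every simulated gene had the same spread between mice (edgeR's common biological coefficient of variation, 0.214), whatever the spread of each member. All 8 members were named. Relatives averaging at least 10 CPM, or among the 3 highest of their list, could be named, and followers were the 3 genes with the highest rho. The members, gene lists and tests were chosen with earlier results of these data known.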

Additional observations from a re-analysis of the deposited data

Results flagged for a closer look

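Dixon's gap test at the 95% level, which picks about 1 in 20 groups by chance, was run on 64 groups and picked 2. Of these groups, 16 were of mice and 48 of the oocytes of a mouse with at least 4 oocytes. Nlrp14 in tube 10 of mouse b, labelled Drp1_KO, stood at 202 CPM, far below the other 4 oocytes of that mouse at 7906 to 10957 CPM. Nlrp4a in tube 27 of mouse 5, labelled Drp1_WT, stood at 1798 CPM, above the other 3 oocytes of that mouse at 1011 to 1088 CPM. The test picked none of the 16 groups of mice. It was not run on the oocytes of mice 1, 2 and 4, labelled Drp1_WT, which gave 3 oocytes each. Nlrp14 in tube 6 of mouse 2 was thus not tested within its mouse. It was at 3941 CPM there, against 9772 and 12153 CPM in that mouse's other oocytes.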

How the results depend on the processing

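The count of members past the threshold was 0 under each of the 24 alternatives, and the lowest adjusted p of any member was 0.243 (Nlrp9c without mouse 5, edgeR). The count over all genes, 2 by edgeR, was 37 by DESeq2, 9 by limma-voom and 4 without tubes 27 to 30, and 1 to 3 when each mouse was left out in turn, falling to 1 without mouse a, b, 2 or 3. Of 192 fold changes of single members under an alternative, 166 kept their sign and 26 turned it, all of them small. For Nlrp4a the log2 value became -0.014 with upper quartile factors, -0.072 with library totals, -0.0023 with a filter of at least 10 CPM in 4 mice, -0.026 without KO tube 10, -0.027 without WT tubes 11 to 15, -0.0020 without WT tube 29 and -0.084 without all of these. For Nlrp4b it became -0.0025 with upper quartile factors, -0.058 with library totals, -0.040 without WT tubes 11 to 15 and -0.047 without all of these tubes. For Nlrp4c it became -0.028 with limma-voom, -0.030 with limma-trend, -0.020 with upper quartile factors, -0.068 with library totals and -0.0069 with that filter. For Nlrp14 it became 0.015 without tubes 27 to 30. Over all genes the median shift from the main fit was -0.029 with upper quartile factors and -0.086 with library totals. It was -0.017 with the filter of at least 10 CPM in 4 mice. The causes of the changes of sign were not tested. With each mouse left out in turn, log2 values ran from -0.020 to 0.051 for Nlrp4a, -0.0093 to 0.055 for Nlrp4b, -0.083 to 0.12 for Nlrp4c, 0.11 to 0.30 for Nlrp4e, 0.094 to 0.19 for Nlrp9a, -0.072 to 0.014 for Nlrp9b, 0.28 to 0.49 for Nlrp9c and -0.12 to 0.017 for Nlrp14. For Nlrp14, limma-voom gave -0.25 and limma-trend -0.22, against -0.04 by edgeR. Pearson's r of log2(CPM + 1) in place of rho ran from 0.33 (Serpini1 with Nlrp4c, 0.76 without tube 10) to 0.98 (Nlrp2 with Nlrp14) over the named followers, with 0.38 for Cip2a with Nlrp4e, 0.41 for Zp2 with Nlrp4c and for Dnttip2 with Nlrp9a, and 0.52 for Rad54b with Nlrp4b. No paired analysis was possible because the mice carry letters under the Drp1_KO label and numbers under the Drp1_WT label, which name no pairs. With 4 and 5 mice a change of 1.5-fold was mostly missed in simulation, over genes of at least 10 CPM given 1 shared spread. That spread is not each member's own. A member's own 95% interval describes its difference under the main edgeR fit with all libraries kept, and does not cover the moves under the alternatives.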
